A study of Mus musculus with 8 samples.

Results

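The PRDM genes described here are 9 named members of the PR domain family, Prdm16, Mecom, Prdm1, Prdm2, Prdm4, Prdm6, Prdm10, Prdm14 and Prdm15. They were found by gene name in the deposited tables and stand for 9 of 53680 distinct names. They occupy 11 loci, since Prdm2 and Prdm10 each appear at 2, and no member shares its locus with another gene name. Of the 11 loci, 10 reached a value of 10 in at least 2 libraries, the minimum for a test, and Prdm14 did not.

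RNA-seq was done on mouse embryoid bodies, free-floating aggregates in which embryonic stem cells differentiate, at day 9 and on a C57BL/6 background. There were 8 libraries in 4 groups of 2: PR16KO (genotype PRDM16 KO) with its wild-type set PR16wt, and PR16EXON4KO (genotype PR domain KO) with a separate wild-type set, PR16EXON4wt. No treatment is given in the labels, and all groups share the strain and the day. The libraries held 6273789 to 9086885 fragments on named loci. The labels do not state which bases were removed in either knockout, how many clones were used, or from how many cultures the replicates came, so the spread behind every p-value is that between these libraries, which may be technical, and knockout and clone cannot be told apart. Replicates of a group were not alike within sampling noise (chi-square of 1.40 to 2.23 per degree of freedom).

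PRDM proteins carry an N-terminal PR domain, which is related to the SET domain of histone methyltransferases, and in most members a set of zinc fingers. Some members modify histones themselves, while others act by recruiting corepressors, methyltransferases or demethylases to DNA. PRDM16 is best known for its part in brown fat, blood stem cells and the developing nervous system and heart, and MECOM, its nearest relative, for blood stem cells and leukaemia.

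The name PR16EXON4 points to exon 4 of Prdm16. In the transcript Prdm16-201 this exon lies on the minus strand of chromosome 4 at chr4:154367178-154367315 (GRCm38, GENCODE M21). It is 138 bases long, or 46 codons with a remainder of 0, and overlaps coding sequence in 7 of 7 protein-coding transcripts. In 3 of them it has the same boundaries and is also numbered exon 4. The most similar coding exon of Mecom, exon 2 of Mecom-203 at chr3:30009763-30009897 on the minus strand, has 135 bases, or 45 codons. It is found with these boundaries, under any exon number, in 8 of 11 protein-coding transcripts of Mecom and is coding in 5. Both are shown because the PR domain knockout is named for this exon and Mecom is the nearest paralogue. Capitals mark the 91 bases identical between them in an alignment with 3 gap bases.
Prdm16 exon 4: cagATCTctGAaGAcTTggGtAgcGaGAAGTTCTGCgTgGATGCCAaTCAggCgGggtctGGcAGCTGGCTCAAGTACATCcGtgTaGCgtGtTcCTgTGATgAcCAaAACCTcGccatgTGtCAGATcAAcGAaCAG
Mecom exon 2: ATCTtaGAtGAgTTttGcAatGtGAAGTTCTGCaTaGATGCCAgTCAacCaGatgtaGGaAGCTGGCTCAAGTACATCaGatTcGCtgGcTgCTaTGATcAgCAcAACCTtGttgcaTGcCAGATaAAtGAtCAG
The identical bases make up 65.94% of the Prdm16 exon. The tables give 1 value per locus, so the loss of a single exon cannot be read from them.

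Prdm16 and Mecom also share sequence at their starts. RefSeq promoter windows of 300 bases (250 before and 50 after the start, GRCm38.p6) were compared for 6 members, in 10 windows found by symbol. These members were Prdm16, Mecom, Prdm1, Prdm4, Prdm10 and Prdm15. No window of Prdm2, Prdm6 or Prdm14 was compared. The Prdm16 window is chr4:154636824-154637123 and the window of the distal Mecom start is chr3:30509710-30510009, both on the minus strand. Capitals mark a run of 24 bases that is identical in both.
Prdm16 promoter: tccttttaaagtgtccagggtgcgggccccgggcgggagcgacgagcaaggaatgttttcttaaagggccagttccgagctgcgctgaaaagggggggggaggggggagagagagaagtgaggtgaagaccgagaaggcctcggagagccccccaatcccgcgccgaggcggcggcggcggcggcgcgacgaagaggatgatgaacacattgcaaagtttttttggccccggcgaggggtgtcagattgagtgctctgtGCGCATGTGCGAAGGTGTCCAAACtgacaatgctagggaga
Mecom distal promoter: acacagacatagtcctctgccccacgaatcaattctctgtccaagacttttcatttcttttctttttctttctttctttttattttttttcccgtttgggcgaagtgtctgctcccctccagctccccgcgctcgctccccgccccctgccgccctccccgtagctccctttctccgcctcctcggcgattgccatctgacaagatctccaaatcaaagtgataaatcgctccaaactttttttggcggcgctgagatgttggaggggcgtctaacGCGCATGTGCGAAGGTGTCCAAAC
The run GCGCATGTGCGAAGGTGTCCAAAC lies 10 to 33 bases past the Prdm16 start and 27 to 50 bases past the Mecom start. Searched on both strands, it was found in 2 of 32851 promoter windows, 0.0061%, which are these. The longest run shared by any other pair among these 10 windows, taken from different members, was 10 bases. The Prdm16 window holds 24 CpG dinucleotides and the distal Mecom window 19, against a median of 7 over all windows, and the proximal Mecom window (chr3:30013155-30013454) holds 9. A shared run is a description of sequence and says nothing of which factor, if any, binds there. Both genes are long: Mecom spans 596.7 kb and Prdm16 320.7 kb, longer than 99.27% and 97.66% of protein-coding genes.

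Levels per transcript length, as the authors' FPKM, set the order of the members. Prdm6, a repressor known from smooth muscle, was highest at a median of 20.8 FPKM over the 8 libraries, followed by Prdm4 at 15.4. Next came the Prdm2 locus XLOC_032688 at 12.6, Mecom at 10.6 and the Prdm2 locus XLOC_031285 at 9.92. The values of Prdm4 (14.9 to 20.3 FPKM) overlapped those of Prdm6 (17.9 to 36.6 FPKM), and Mecom (7.84 to 19.3 FPKM) overlapped Prdm4 and both Prdm2 loci. Prdm15 at 4.69, Prdm10 locus XLOC_046340 at 4.15, Prdm1 at 3.80 and Prdm10 locus XLOC_047757 at 3.53 FPKM formed a lower set whose ranges overlapped one another. Prdm16 was well below these at a median of 0.815 FPKM (0.0218 to 1.39), and Prdm14 was listed at a median of 0.

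**Figure D1:**
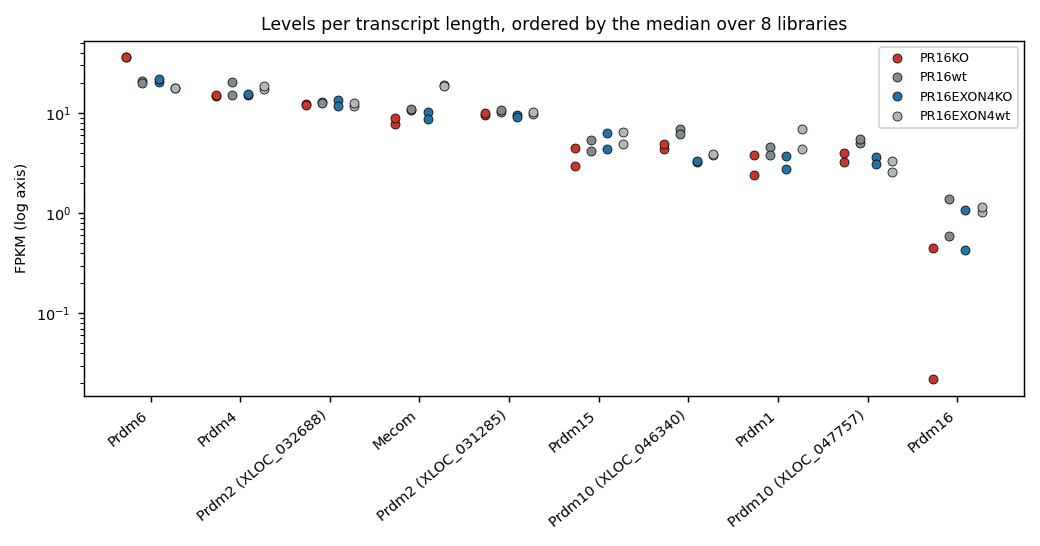
FPKM (log axis) of 10 PRDM loci in each of the 8 libraries, ordered by median. Points are single libraries, coloured by group; Prdm14, with a median of 0, is not drawn. Prdm6 sits highest in PR16KO at 36.5 and 36.6 FPKM, and Prdm16 sits lowest, down to 0.0218 FPKM in PR16KO replicate 2.

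Below, the unit of a level is the normalised fragment, a locus's fragments over the library's size factor. Fold changes are differences between the group means of log2(value + 1), ± SE. They come from limma fitted over 16623 loci, with Benjamini-Hochberg adjusted p below 0.05 counted as passing. Group means of normalised fragments are ± SD with n = 2, and a fold change is not the ratio of these means. The +1 shrinks changes of low genes, but averaging on the log scale lets a single low library enlarge a fall. In these bulk samples, fewer cells of a type and less RNA per cell cannot be told apart.

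Prdm16, the targeted gene, was the lowest of the tested members in every library. The recovered whole fragments were 9 and 1 in the PR16KO libraries, against 23 and 28 in the PR16wt libraries. As normalised fragments these were 11.2 and 1.10 in PR16KO, against 24.4 and 26.3 in PR16wt. Both PR16KO libraries lay below both PR16wt libraries, and PR16KO replicate 2 lay far below replicate 1. Prdm16 fell by 2.38 ± 0.50 on the log2 scale in PR16KO (limma adjusted p = 0.000306). With edgeR's quasi-likelihood test on recovered fragments the log2 fold change was -2.05 (adjusted p = 0.00128). By fragments, PR16KO held 22.9% of the PR16wt level (exact 95% interval 10.4 to 45.7%, which covers counting error only). Without PR16KO replicate 1 the share was 4.33%, from 1 fragment, and the log2 fold change -3.65. Without PR16KO replicate 2 they were 43.9% and -1.11. Either way 1 PR16KO library was left, so only the effect size is given.

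Prdm16 transcripts were still counted in the PR domain knockout, with 26 and 19 fragments in PR16EXON4KO, against 44 and 22 in PR16EXON4wt. The normalised fragments were 23.3 and 15.7 in PR16EXON4KO, against 44.6 and 22.7 in PR16EXON4wt. The groups overlapped, because PR16EXON4wt replicate 2 lay between the PR16EXON4KO libraries. At -0.71 ± 0.50 on the log2 scale, Prdm16 missed the threshold here (limma adjusted p = 0.377). PR16EXON4KO held 57.4% of the PR16EXON4wt level by fragments (exact 95% interval 38.4 to 85.1%, counting error only). That share was 85.3% without PR16EXON4wt replicate 1 and 43.4% without PR16EXON4wt replicate 2, at log2 fold changes of -0.23 and -1.18.

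The difference between both knockout effects on Prdm16, PR domain knockout minus Prdm16 knockout, came to 1.68 ± 0.71, short of the threshold (limma adjusted p = 0.107). It was 2.94 without PR16KO replicate 1 and 0.41 without PR16KO replicate 2, each with 1 PR16KO library left. FPKM ordered the libraries differently from the fragments. Prdm16 had 0.445 and 0.0218 FPKM in PR16KO, against 0.595 and 1.39 FPKM in PR16wt, and 1.09 and 0.432 FPKM in PR16EXON4KO, against 1.03 and 1.15 FPKM in PR16EXON4wt. The normalised fragments that made up 1 FPKM ranged from 18.9 to 50.4 for Prdm16, a 2.66-fold range between libraries that exceeds that of 94.3% of tested loci, whose median range is 1.20-fold. On log2(FPKM + 1) the PR16KO change was -0.69 and on log2(FPKM + 0.1) it was -1.98, and neither passed (limma adjusted p = 0.151 and 0.141).

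**Figure D2:**
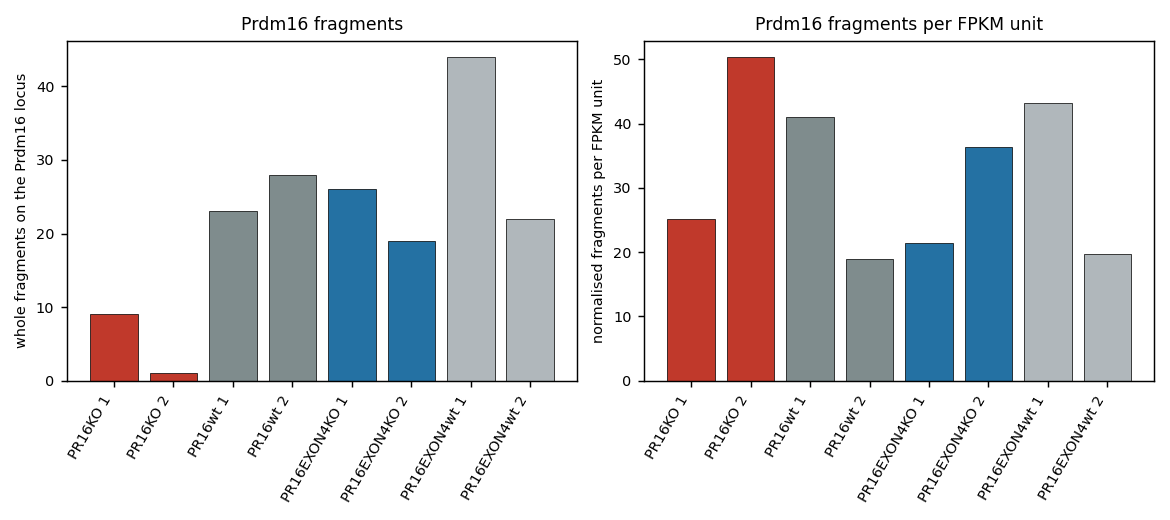
Whole fragments recovered on the Prdm16 locus (left) and normalised fragments per FPKM unit of Prdm16 (right), 1 bar per library. The PR16KO libraries hold 9 and 1 fragments, below the other 6 libraries at 19 to 44, and the fragments behind 1 FPKM unit range from 18.9 to 50.4.

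Genes that overlap Prdm16 add little to its locus. B230104I21Rik had at most 1.06 normalised fragments in any library, and the antisense genes Gm13133 and Gm13134 were at 0 in all 8. The neighbour Arhgef16 had 226 and 248 normalised fragments in PR16KO, against 210 and 198 in PR16wt, and 95.1 and 78.6 in PR16EXON4KO, against 114 and 96.0 in PR16EXON4wt. Neither log2 fold change, 0.21 in PR16KO and -0.27 in PR16EXON4KO, reached the threshold (limma adjusted p = 0.223 and 0.177). The neighbour Actrt2 was at 0 in all libraries.

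Across the family, the Prdm16 knockout moved 7 of the 10 tested loci past the threshold, and 39.1% of all tested loci passed in that comparison. Of these 7 loci, 1 rose (Prdm6; background 18%) and 6 fell (Prdm16, Prdm1, Prdm4, Prdm15 and both Prdm10 loci; background 21.1%). The 7 loci include Prdm16, the targeted gene, and both loci of Prdm10, and by name 6 of 8 passed. The median log2 fold change of the 10 loci, Prdm16 among them, was -0.34, against -0.03 over all tested loci. Of the same 10 loci, 3 passed in the PR domain knockout, where 19.2% of all tested loci did. Prdm6 rose (background 8.48%) and Mecom and Prdm1 fell (background 10.7%), and the median was -0.11, against -0.03 over all loci. The members were picked with earlier results of these libraries known, so these counts are descriptions. The number that passed rested on single libraries: it was 4 without PR16KO replicate 1 and 4 without PR16wt replicate 2 in the Prdm16 knockout, and 2 without any 1 of the 4 PR domain libraries in the PR domain knockout.

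**Figure D3:**
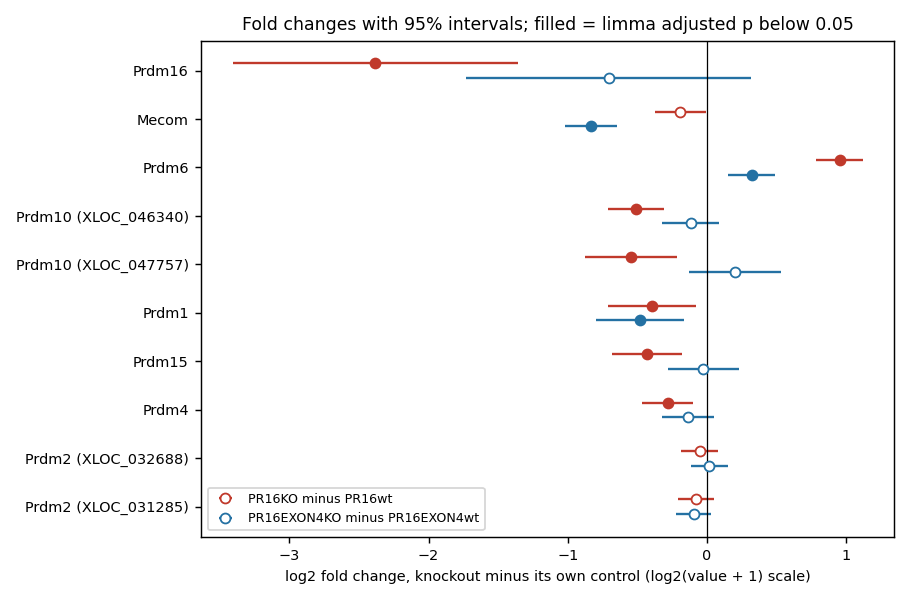
Log2 fold changes of 10 PRDM loci, knockout minus its own control, with 95% intervals from limma. Red is PR16KO minus PR16wt and blue is PR16EXON4KO minus PR16EXON4wt; filled points passed at adjusted p below 0.05. Prdm6 is right of 0 in both, at 0.95 and 0.32, and Mecom stands apart in the PR domain knockout at -0.83.

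Mecom, the closest paralogue of Prdm16 and like it a zinc finger regulator that binds CtBP corepressors, fell in the PR domain knockout. It had 288 and 270 normalised fragments in PR16EXON4KO, against 534 and 463 in PR16EXON4wt, or 279 ± 13.0 against 499 ± 50.2. The groups did not overlap, and both PR16EXON4wt libraries stood above all 6 other libraries. Mecom fell by 0.83 ± 0.09 on the log2 scale there (limma adjusted p = 2.43e-08). In the Prdm16 knockout it had 285 and 263 normalised fragments in PR16KO, against 316 and 310 in PR16wt. These groups did not overlap either, but the log2 fold change of -0.19 ± 0.09 did not pass (limma adjusted p = 0.0921). It passed at -0.23 when libraries were scaled to total fragments (limma adjusted p = 0.0414). The effects differed by -0.64 ± 0.13, PR domain knockout minus Prdm16 knockout (limma adjusted p = 0.000547), a call lost on both FPKM scales. That difference involves the wild-type sets, because Mecom was 0.67 ± 0.09 higher on the log2 scale in PR16EXON4wt than in PR16wt (limma adjusted p = 6.72e-07).

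The fall of Mecom in the PR domain knockout passed under each of the 20 alternatives run, between -1.01 and -0.73. The antisense gene Mecomos, which overlaps it, had 0 to 4.40 normalised fragments, and the neighbours Actrt3 and Egfem1 had at most 1.06 and 6.20. Endothelial markers fell at 8 of 8 tested genes in the same comparison, with a summed level of 4854 to 4949 normalised fragments in PR16EXON4KO, against 6866 to 7049 in PR16EXON4wt. Blood progenitor markers rose at 5 and fell at 2 of 8 genes, summing to 3017 to 3048 normalised fragments in PR16EXON4KO, against 2293 to 2373 in PR16EXON4wt. Over all tested loci, 8.48% rose and 10.7% fell in that comparison. In the Prdm16 knockout, where Mecom did not pass, endothelial markers rose at 2 and fell at 5 of 8 genes. They summed to 4444 to 4615 normalised fragments in PR16KO, against 4939 to 4999 in PR16wt. Blood progenitor markers rose at 3 and fell at 2 of 8 there, and 18% of all tested loci rose and 21.1% fell. No gene of either list was at 0 throughout, and their part in the Mecom result was not tested.

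Prdm6 rose in both knockouts. It had 627 and 618 normalised fragments in PR16KO, against 315 and 328 in PR16wt, or 622 ± 5.81 against 322 ± 9.44. The PR16KO libraries were the highest of all 8. The rise was 0.95 ± 0.08 on the log2 scale, 1.93-fold (limma adjusted p = 1.03e-10), and it passed under all 20 alternatives, at 0.80 to 1.00. In the PR domain knockout Prdm6 had 327 and 358 normalised fragments in PR16EXON4KO, against 271 and 277 in PR16EXON4wt, again without overlap. It rose by 0.32 ± 0.08 there (limma adjusted p = 0.00474), and that call was lost without PR16EXON4KO replicate 2, at 0.25 (limma adjusted p = 0.0926), and on both FPKM scales.

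The rise of Prdm6 in the PR domain knockout minus that in the Prdm16 knockout was -0.63 ± 0.12 (limma adjusted p = 0.000220), a call lost on both FPKM scales. Prdm6 was 0.23 ± 0.08 lower on the log2 scale in PR16EXON4wt than in PR16wt (limma adjusted p = 0.0293). That call was lost without any 1 of the 4 wild-type libraries, at -0.26 without PR16wt replicate 1, -0.20 without PR16wt replicate 2, -0.22 without PR16EXON4wt replicate 1 and -0.25 without PR16EXON4wt replicate 2, and also with edgeR, the DESeq2 Wald test and FPKM. Of 7 tested smooth muscle markers, 2 rose and 2 fell in the Prdm16 knockout, with a summed level of 8258 to 8473 normalised fragments in PR16KO, against 6756 to 6918 in PR16wt. In the PR domain knockout 0 rose and 4 fell, at 7988 to 8068 in PR16EXON4KO, against 11922 to 12329 in PR16EXON4wt. Over all tested loci, 18% rose and 21.1% fell in the Prdm16 knockout, and 8.48% rose and 10.7% fell in the PR domain knockout. The mature smooth muscle gene Myh11 had 1.24 to 10.1 normalised fragments and was not tested, and the part of these markers in the Prdm6 result was not tested.

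**Figure D4:**
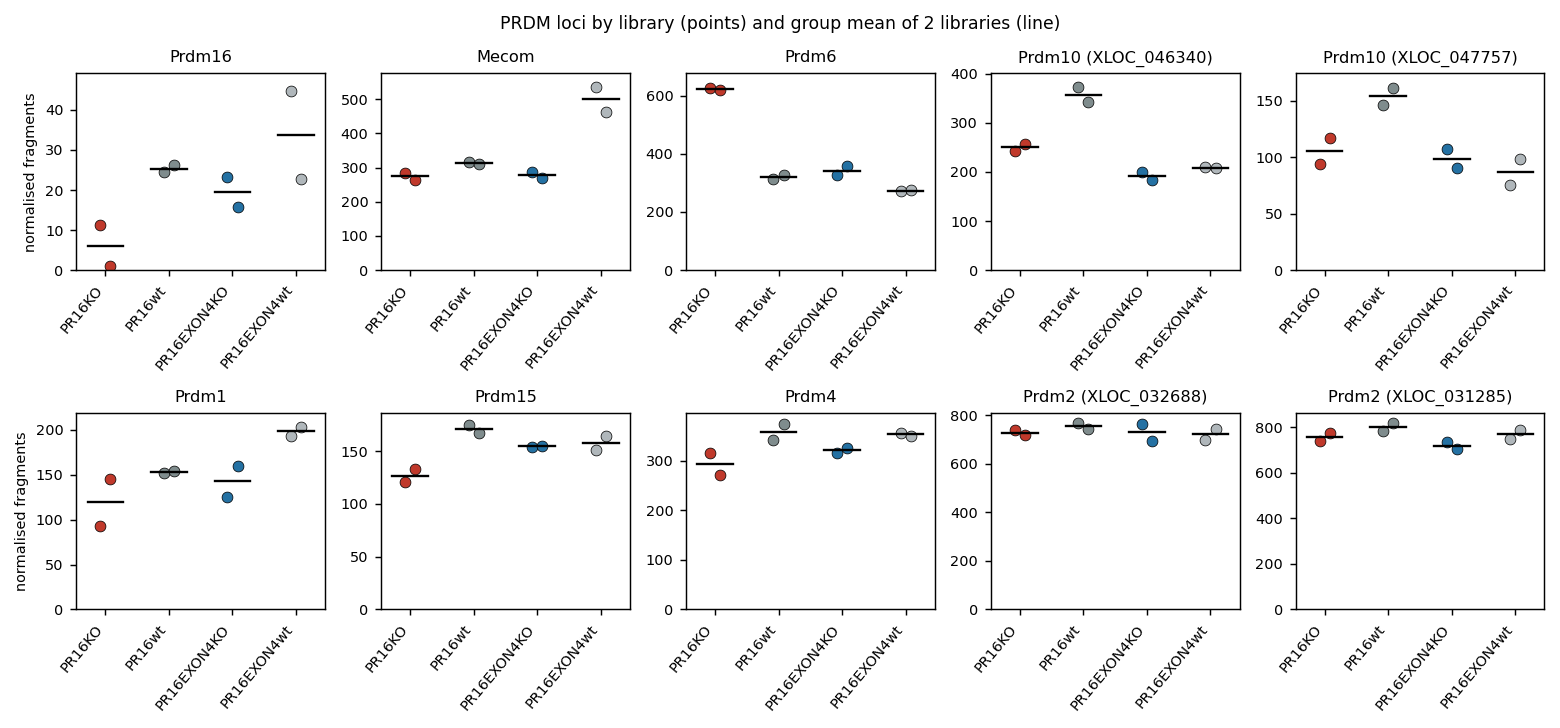
Normalised fragments of 10 PRDM loci in each library (points) with the mean of 2 libraries (line), in the order PR16KO, PR16wt, PR16EXON4KO, PR16EXON4wt; each panel has its own axis from 0. Prdm6 is highest in PR16KO (627 and 618), Mecom in PR16EXON4wt (534 and 463), and both Prdm10 loci in PR16wt.

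Prdm10, a zinc finger activator needed early in development, was listed at 2 loci, and both fell in the Prdm16 knockout. Locus XLOC_046340 had 243 and 257 normalised fragments in PR16KO, against 372 and 342 in PR16wt. It fell by 0.51 ± 0.10 on the log2 scale (limma adjusted p = 0.000118), without overlap between the groups, but not past the threshold on either FPKM scale (limma adjusted p = 0.0755 and 0.0858). Locus XLOC_047757 had 94.3 and 117 normalised fragments in PR16KO, against 146 and 162 in PR16wt. It fell by 0.55 ± 0.16 (limma adjusted p = 0.00729), a call lost at -0.40 without PR16KO replicate 1, at -0.48 without PR16wt replicate 2, with the DESeq2 Wald test and on both FPKM scales. Neither passed in the PR domain knockout. XLOC_046340 had 199 and 184 normalised fragments in PR16EXON4KO, against 209 and 207 in PR16EXON4wt, and XLOC_047757 had 108 and 90.2 in PR16EXON4KO, against 75.0 and 98.0 in PR16EXON4wt. The log2 fold changes were -0.12 ± 0.10 and 0.20 ± 0.16 (limma adjusted p = 0.469 and 0.457).

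The wild-type sets also differed at Prdm10. Locus XLOC_046340 was 0.78 ± 0.10 and XLOC_047757 0.84 ± 0.16 lower on the log2 scale in PR16EXON4wt than in PR16wt (limma adjusted p = 2.48e-07 and 0.000133), and XLOC_047757 no longer passed on either FPKM scale. The effect in the PR domain knockout minus that in the Prdm16 knockout was 0.75 ± 0.23 at XLOC_047757 (limma adjusted p = 0.0227) and 0.39 ± 0.14 at XLOC_046340, which did not pass (limma adjusted p = 0.0534). The XLOC_047757 difference no longer passed without PR16KO replicate 1 (0.59), PR16wt replicate 2 (0.67), PR16EXON4KO replicate 1 (0.62) or PR16EXON4wt replicate 1 (0.56), with the DESeq2 Wald test, with no filter or on FPKM. Over the family, 3 of 10 member loci passed for the difference of effects, where 16.4% of all loci did. That was 1 locus with a higher effect in the PR domain knockout (background 7.81%) and 2, Mecom and Prdm6, with a lower one (background 8.6%). Between the wild-type sets 4 of 10 passed, where 33% of all loci did. Mecom was higher in PR16EXON4wt (background 16.3%), and Prdm6 and both Prdm10 loci were lower (background 16.7%).

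The tables do not say what distinguishes the loci that carry 1 name. Among the 10 rows on each side in the table, the annotated neighbours of Prdm10 locus XLOC_046340 were all on the plus strand (20 of 20), the strand of the gene, and those of XLOC_047757 all on the minus strand (19 of 19). For Prdm2, which is annotated on the minus strand, the neighbours of XLOC_032688 were all on the minus strand (20 of 20) and those of XLOC_031285 all on the plus strand (20 of 20). The tables give no strand for a locus, so values of the loci are kept apart here.

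Prdm1, known as Blimp1, a repressor that drives plasma cell and germ cell fates, was lower in both knockouts by a small margin. It had 93.1 and 145 normalised fragments in PR16KO, against 152 and 154 in PR16wt, and 126 and 160 in PR16EXON4KO, against 194 and 203 in PR16EXON4wt. Neither pair of groups overlapped, but each knockout pair was spread widely. Prdm1 fell by 0.39 ± 0.15 on the log2 scale in PR16KO (limma adjusted p = 0.0440) and by 0.48 ± 0.15 in PR16EXON4KO (limma adjusted p = 0.0246). The PR16KO call was lost under 13 of 20 alternatives, among them edgeR's quasi-likelihood test (adjusted p = 0.132). It was -0.07 without PR16KO replicate 1, -0.40 without PR16wt replicate 1 and -0.38 without PR16wt replicate 2, and it also failed without either PR16EXON4wt library, at the same -0.39. The PR16EXON4KO call was lost under 7, at -0.31 without PR16EXON4KO replicate 1, -0.52 without PR16EXON4wt replicate 1 and -0.45 without PR16EXON4wt replicate 2.

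Prdm1 is also known from endoderm and macrophages, whose markers moved in both comparisons. Macrophage markers rose at 7 of 7 genes in each knockout, summing to 2638 to 2726 normalised fragments in PR16KO, against 1187 to 1269 in PR16wt, and to 6728 to 6788 in PR16EXON4KO, against 3441 to 3577 in PR16EXON4wt. Visceral endoderm markers rose at 8 and fell at 0 of 10 genes in PR16KO, and rose at 9 and fell at 1 in PR16EXON4KO. They summed to 78139 to 78793 normalised fragments in PR16KO, against 37027 to 38675 in PR16wt, and to 10045 to 10144 in PR16EXON4KO, against 5505 to 5805 in PR16EXON4wt. Over all tested loci, 18% rose and 21.1% fell in PR16KO, and 8.48% rose and 10.7% fell in PR16EXON4KO. No gene of either list was at 0 in all libraries, and their part in the Prdm1 result was not tested.

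Prdm15, a regulator of stem cell and neural genes, fell in the Prdm16 knockout. It had 120 and 133 normalised fragments in PR16KO, against 175 and 167 in PR16wt, without overlap. The fall was 0.43 ± 0.12 on the log2 scale (limma adjusted p = 0.00603), and it was lost at -0.36 without PR16KO replicate 1, at -0.40 without PR16wt replicate 1, with the DESeq2 Wald test (adjusted p = 0.126) and on both FPKM scales. Prdm15 in the PR domain knockout had 154 and 155 normalised fragments in PR16EXON4KO, against 151 and 164 in PR16EXON4wt, and the log2 fold change was -0.03 ± 0.12 (95% interval -0.28 to 0.23, limma adjusted p = 0.920), or 0.0092 with DESeq2 scaling. The difference of the effects, 0.40 ± 0.18, did not pass (limma adjusted p = 0.117). Neural progenitor markers fell at 6 of 6 tested genes in PR16KO, with sums of 706 to 720 normalised fragments, against 1351 to 1360 in PR16wt, and Hes5 of that list was at 0 in PR16KO. Of the 6 genes, 3 fell in the PR domain knockout, with sums of 1121 to 1122 in PR16EXON4KO, against 1616 to 1653 in PR16EXON4wt. Over all tested loci, 21.1% fell in PR16KO and 10.7% in PR16EXON4KO. The part of the neural markers in the Prdm15 result was not tested.

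Prdm4, which acts with the arginine methyltransferase PRMT5 in neural stem cells, fell slightly in the Prdm16 knockout. It had 316 and 272 normalised fragments in PR16KO, against 341 and 373 in PR16wt. The fall was 0.28 ± 0.09 on the log2 scale (limma adjusted p = 0.0131), and it was lost at -0.17 without PR16KO replicate 2, at -0.22 without PR16wt replicate 2, with the DESeq2 Wald test (adjusted p = 0.181) and on both FPKM scales. In the PR domain knockout it had 316 and 327 normalised fragments in PR16EXON4KO, against 357 and 350 in PR16EXON4wt. The groups did not overlap, but the log2 fold change of -0.14 ± 0.09 did not pass (limma adjusted p = 0.333).

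Prdm2, known as RIZ1, a histone methyltransferase and tumour suppressor, had the narrowest range of the tested members. Locus XLOC_032688 had 738 and 718 normalised fragments in PR16KO, against 770 and 743 in PR16wt, and 766 and 695 in PR16EXON4KO, against 698 and 746 in PR16EXON4wt. Locus XLOC_031285 had 739 and 777 in PR16KO, against 785 and 818 in PR16wt, and 736 and 703 in PR16EXON4KO, against 748 and 791 in PR16EXON4wt. The highest library was 1.11 times the lowest at XLOC_032688 and 1.16 times at XLOC_031285, while at Mecom it was 2.03 times. The 95% intervals of the log2 fold changes were -0.19 to 0.08 and -0.21 to 0.05 in PR16KO, and -0.12 to 0.15 and -0.22 to 0.03 in PR16EXON4KO, in the order XLOC_032688 and XLOC_031285.

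Prdm14, a pluripotency and germ cell factor, was barely counted at day 9. It had 0 fragments in both PR16KO libraries, against 2 and 0 in PR16wt, and 0 and 1 in PR16EXON4KO, against 0 in both PR16EXON4wt libraries. All groups were under the floor of 3 fragments, so no fold change is given. Pluripotency markers moved in both directions, with 2 of 5 tested genes higher and 2 lower in each knockout. In PR16KO the log2 fold changes were 0.90 for Tfcp2l1 (a locus with 2 gene names), 0.80 for Klf4, -0.93 for Pou5f1 and -1.01 for Tdgf1. Nanog, at -0.64, did not pass there. In PR16EXON4KO they were 0.985, -0.48, 0.84 and -2.11 in the same order, and Nanog, at -0.12, did not pass. Pou5f1 was low there, at 15.3 and 17.4 normalised fragments in PR16EXON4KO, against 9.13 and 8.26 in PR16EXON4wt. It had 151 and 129 in PR16KO, against 272 and 262 in PR16wt. The whole pluripotency list, which hides these opposite moves, summed to 1615 to 1641 normalised fragments in PR16KO, against 1217 to 1372 in PR16wt. It summed to 656 to 657 in PR16EXON4KO, against 639 to 651 in PR16EXON4wt. Primordial germ cell markers summed to 15.4 to 16.1 normalised fragments in PR16KO, against 49.8 to 55.5 in PR16wt, and 25.6 to 27.8 in PR16EXON4KO, against 24.8 to 28.4 in PR16EXON4wt. Of the 6 listed genes only 2, Tfap2c and Dnd1, were tested, and the rest were too low. Both fell in PR16KO, where 21.1% of all tested loci fell, and neither passed in PR16EXON4KO. Tfap2c had 1.24 and 3.30 normalised fragments in PR16KO, against 23.3 and 18.8 in PR16wt. Dnd1 had 8.68 and 3.30, against 10.6 and 21.6. Whether germ cells were fewer was not tested.

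Other PR domain family genes were listed beside the members, of which Zfpm1 is not analysed here. In the PR domain knockout 1 of the 5 tested rose, where 19.2% of all loci passed. In the Prdm16 knockout 2 of the 5 rose and 1 fell, where 39.1% of all loci passed. Zfpm2, a GATA cofactor of heart and gonad, had the larger rise. It had 380 and 369 normalised fragments in PR16KO, against 215 and 228 in PR16wt, and rose by 0.75 ± 0.09 on the log2 scale (limma adjusted p = 5.04e-08). It also rose in the PR domain knockout, with 449 and 433 normalised fragments in PR16EXON4KO, against 265 and 296 in PR16EXON4wt, by 0.65 ± 0.09 (limma adjusted p = 1.54e-06). Cardiac muscle markers fell at 5 of 6 genes in PR16KO, summing to 3081 to 3132 normalised fragments, against 4560.0 to 4850.3 in PR16wt, and at 6 of 6 in PR16EXON4KO, at 4752 to 4830.1, against 10848 to 11110 in PR16EXON4wt. Over all tested loci, 21.1% fell in PR16KO and 10.7% in PR16EXON4KO. The part of the cardiac markers in the Zfpm2 result was not tested. Prdm11 averaged 316 ± 25.2 normalised fragments in PR16KO, against 236 ± 7.99 in PR16wt, and rose by 0.42 ± 0.09 (limma adjusted p = 0.000519), and Zfp408 fell by 0.27 ± 0.10 (limma adjusted p = 0.0387). Prdm9 passed in neither comparison. Prdm8 had 0.897 to 8.48 normalised fragments, and Prdm12 and Prdm13 had at most 1.06 and 1.10, too few to test.

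Of 15 tested cofactors of PRDM16 and MECOM, 2 rose and 4 fell in the Prdm16 knockout, a share near the 39.1% of all loci, with a median log2 fold change of 0.04, against -0.03 over all loci. In the other knockout 1 fell, where 19.2% of all loci passed, with a median of -0.08, against -0.03 over all loci. Cebpb, the partner of PRDM16 in the brown fat switch, had 75.7 and 78.1 normalised fragments in PR16KO, against 27.6 and 32.0 in PR16wt, and rose by 1.34 ± 0.22 on the log2 scale (limma adjusted p = 8.79e-06). Smad3, the TGF-beta mediator, fell by 0.36 ± 0.06 in PR16KO (limma adjusted p = 9.26e-06). Ehmt1, the H3K9 methyltransferase bound by PRDM16, fell by 0.20 ± 0.05 (limma adjusted p = 0.00411), at a locus that carries another gene name as well. The demethylase gene Kdm1a fell by 0.14 ± 0.05 in PR16EXON4KO (limma adjusted p = 0.0286).

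Of 9 tested partner genes of PRDM1, PRDM4 and PRDM14, 1 rose and 5 fell in the Prdm16 knockout, where 39.1% of all loci passed, and 1 rose and 1 fell in the PR domain knockout, where 19.2% did. The median log2 fold changes were -0.19 in PR16KO and -0.05 in PR16EXON4KO, against -0.03 over all loci in each. Tle1, a Groucho corepressor, had 207 and 224 normalised fragments in PR16KO, against 366 and 363 in PR16wt, and fell by 0.75 ± 0.10 (limma adjusted p = 3.94e-07). Wdr77, the PRMT5 cofactor, fell by 0.42 ± 0.06 (limma adjusted p = 4.49e-06) at a locus with 3 gene names. Ezh2, the Polycomb methyltransferase, fell by 0.34 ± 0.06 in PR16KO (limma adjusted p = 1.08e-05) and by 0.18 ± 0.06 in PR16EXON4KO (limma adjusted p = 0.0193). Tle3 rose by 0.29 ± 0.05 in PR16EXON4KO (limma adjusted p = 0.000139).

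Each tested member was also set against 10187 other loci by the Pearson correlation of log2(value + 1) over the 8 libraries, which form 4 groups of 2, so that these values mostly repeat the differences between groups. Dlk1 (r = 0.9964) and Pls1 (0.9927) were most like Prdm6. Lig4 (0.9893) and Babam1 (0.9886) were most like Mecom, and Pi4k2a (0.986) and Ypel1 (0.9762) most like Prdm16. Btaf1 (0.993) and Clcn6 (0.9914) were most like Prdm10 locus XLOC_046340. The lowest best value was that of Prdm2 locus XLOC_032688, with Trim33 at 0.876.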

How the data were processed

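RNA-seq of 8 libraries of day 9 embryoid bodies was grouped by sample title, with replicate numbers from the titles. Total RNA was extracted with Trizol and RNeasy columns and made into TruSeq libraries, per the labels' protocols. Cufflinks 2.2.1, TopHat2 2.1.1, deepTools, SAMtools 1.5 and the mm10 build are named, without roles, in the submitters' processing notes. Neither the annotation release nor the strand setting is given in the sources used here, and sense and antisense reads cannot be told apart. The deposited signal values are fragments scaled by the authors, with 1 size factor for each library, as the values show. Dividing by the value of 1 fragment gave whole numbers, within 0.1, for 99.984 to 100.0% of values. The authors' deposited FPKM values entered levels and alternatives. Unnamed loci (787 of 53068, 1.88 to 2.53% of fragments) were left out.

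The test was limma 3.58.1 (limma-trend, R 4.3.3) on log2(value + 1), with 4 group means over all 8 libraries, 4 residual and 25.4 prior degrees of freedom, a minimum value of 10 in at least 2 libraries per locus, and Benjamini-Hochberg adjustment over 16623 loci. It was tested on simulated data. Alternatives were other scalings, edgeR 4.0.16 and DESeq2 1.42.0 on recovered fragments, pseudocounts of 0.5 and 5, no filter, FPKM, only the libraries compared, a replicate block and each library left out. Leaving out a library left 1 in its group, and the spread then came from the other groups and the prior. Named genes were all members, the listed family genes (1 result is not reported here), the members of the other lists with the 3 smallest adjusted p per knockout among those that passed, the 2 loci most like each member, and the genes overlapping or next to Prdm16 and Mecom. Myh11, Hes5 and the tested pluripotency markers were named after their values were seen. The members and lists were chosen with earlier results of these data known.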

Additional observations from a re-analysis of the deposited data

Results flagged for a closer look

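Prdm6, Mecom and 1 Prdm10 locus stood out because their effects in the 2 knockouts differed when that difference was itself tested, as the effect in the PR domain knockout minus that in the Prdm16 knockout. The difference was -0.63 on the log2 scale for Prdm6, which rose in both knockouts, by 0.32 in PR16EXON4KO and 0.95 in PR16KO (limma adjusted p = 0.000220 for the difference). It was -0.64 for Mecom, at -0.83 in PR16EXON4KO and -0.19 in PR16KO (limma adjusted p = 0.000547). It was 0.75 for Prdm10 locus XLOC_047757, at 0.20 in PR16EXON4KO and -0.55 in PR16KO (limma adjusted p = 0.0227). All 3 also passed between the wild-type sets in the main fit, PR16EXON4wt minus PR16wt, at -0.23, 0.67 and -0.84 in that order. The control levels that the knockout effects start from thus differed in that fit. The wild-type call of Prdm6 was lost under 8 of 19 alternatives, and so was the difference of effects at XLOC_047757.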

How the results depend on the processing

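The main test and the edgeR and DESeq2 alternatives were set with earlier results of these data known. With the DESeq2 Wald test on fragments, 3 member loci and 3983 of all loci passed in the Prdm16 knockout, against 7 and 6502, and 1797 of all loci passed in the PR domain knockout, against 3190. On log2(FPKM + 1) and log2(FPKM + 0.1), member loci that passed were 1 and 1 for PR16KO, 1 and 1 for PR16EXON4KO, 0 and 0 for the difference of effects and 2 and 2 between the wild-type sets. All loci that passed were 2244 and 2143 for PR16KO and 582 and 511 for PR16EXON4KO. Prdm16 in PR16KO was -0.69 and -1.98 there, no longer passing, and Mecom in PR16KO passed at -0.23 with total-fragment scaling. Leaving out 1 library gave 4 to 7, 2 to 3, 2 to 3 and 3 to 5 member loci in the 4 comparisons, 5028 to 6477 of all loci for PR16KO, 2180 to 3367 for PR16EXON4KO, and -3.65 to -1.11 for Prdm16 in PR16KO.

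Signs turned only for values that did not pass, and the cause was not tested. Prdm15 in PR16EXON4KO was 0.0092 with DESeq2 scaling and 0.0083 with the DESeq2 Wald test, and ranged from -0.0865 to 0.0317 with 1 library left out. For the difference of effects, Prdm2 locus XLOC_031285 was 0.0445 with total-fragment scaling and Prdm4 was -0.0026 and -0.0032 on FPKM. Between the wild-type sets, Prdm4 was 0.0078 with TMM, 0.0042 with edgeR and 0.0424 and 0.0453 on FPKM, and Prdm15 was 0.2068 and 0.2416 on FPKM. With 1 library left out, Prdm2 locus XLOC_032688 ranged from -0.0545 to 0.0864 in PR16EXON4KO and from -0.0001 to 0.14 for the difference, XLOC_031285 from -0.0562 to 0.0227 and Prdm1 from -0.41 to 0.23 for the difference, and Prdm4 from -0.0791 to 0.0498 and Prdm16 from -0.15 to 0.79 between the wild-type sets.

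Libraries with the same number did not deviate together over all tested loci (correlations of -0.036 to 0.031). Counting noise at low loci lowers such correlations, so they cannot settle whether the numbers pair the libraries. With the replicate number as a block, 7, 3, 3 and 5 member loci passed. The 1 member call that changed was Prdm1 between the wild-type sets, at 0.37 (limma adjusted p = 0.0397). Prdm16 and Prdm14 are limited by depth, with at most 44 and 2 fragments in a library.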
